A study of Homo sapiens with 8 samples.

Results

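The genes described here encode 10 proteins that fold, hold or clear proteins in the endoplasmic reticulum (ER), measured by RNA sequencing in HEK293T cells and in 3 knockout lines made from them. HSPA5, HSP90B1, HYOU1 and DNAJB9 are chaperones and a co-chaperone, CALR and CANX are lectin chaperones, PDIA3, PDIA4 and PDIA6 are protein disulfide isomerases, and HERPUD1 takes part in ER-associated degradation. They were found by symbol among the 60617 gene identifiers of the count table, all 10 were present, and all 10 were among the 17527 genes that passed the filter on low counts. The genes were chosen by function with results of this table already known, among them the falls of HSPA5 and PDIA6 in sgKDM5C against WT. Values of the members in the sgKDM5C line are therefore given as a description, with no p-value. The number of members past the threshold in that line is printed beside the share over all genes, and nothing is read from it.

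HEK293T is a human embryonic kidney line. The WT group is the unedited line, and in sgKDM5C, sgKDM6A and sgKMT2B, labelled as knockouts, a guide RNA was directed at KDM5C (a demethylase of H3K4), KDM6A (a demethylase of H3K27) or KMT2B (a methyltransferase of H3K4). All 4 groups share the parental line and the same serum-containing medium, with no drug or stress named, and each has 2 libraries. Whether a knockout line is 1 clone or a pool, and whether replicates are separate cultures, the sources used here do not say, so p-values measure only the spread between these libraries, which may be technical. The comparisons ask how transcript levels in each edited line differ from those of the unedited cells.

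Proteins that enter the secretory pathway fold in the ER lumen. HSPA5 (BiP) binds exposed hydrophobic stretches in an ATP-driven cycle, HSP90B1 (GRP94) matures selected clients, the calnexin and calreticulin cycle holds glycoproteins, and the isomerases form and rearrange disulfide bonds. When unfolded protein accumulates, the sensors IRE1 (ERN1), PERK (EIF2AK3) and ATF6 start the unfolded protein response (UPR). The factors ATF6 and spliced XBP1, with NF-Y, act on ER stress response elements in the promoters of chaperone genes, and PERK acts through ATF4.

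The promoters are shown because they hold what most of these genes share in sequence. The genes were not chosen by motif, but the elements searched are known from promoters of chaperone genes. The shares given below are therefore a description and no independent finding about these genes. RefSeq promoter windows (GRCh38.p14, 250 bases before to 50 after an annotated start) were found for 9 of the 10 members in 14 windows. The motifs searched, on both strands, were ERSE (CCAAT, then 9 bases of any kind, then CCACG), ERSE-II (ATTGG, then 1 base of any kind, then CCACG) and UPRE (TGACGTGG). ERSE was in the windows of 5 members (HSPA5, HSP90B1, CALR, CANX and PDIA6), and ERSE-II in those of HERPUD1 and HYOU1. In HYOU1 the UPRE overlapped an ERSE-II match. Of all 35116 windows, 0.0769% (27 windows) held ERSE, 0.0541% (19 windows) held ERSE-II and 0.729% held UPRE, and 7 of the 27 and 2 of the 19 windows were those of members. HSP90B1 had 2 ERSE matches, 1 on each strand, and 1 of all 35116 windows held 2 or more. Windows of 1 gene can overlap, so windows that hold a motif are not independent. In DNAJB9 and PDIA4 these letters were not in the windows, which says nothing about the factors.

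The matches of the genes below are printed 5′ to 3′ on the strand of the gene with 15 bases on either side, and capitals mark the fixed letters of ERSE, ERSE-II and UPRE. A match on the opposite strand reads as the reverse complement.
HSPA5, from 66 bases upstream of the start: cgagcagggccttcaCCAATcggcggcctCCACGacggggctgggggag
HSP90B1, from 194 bases upstream: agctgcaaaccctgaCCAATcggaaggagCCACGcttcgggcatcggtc
HSP90B1, from 89 bases upstream, opposite strand: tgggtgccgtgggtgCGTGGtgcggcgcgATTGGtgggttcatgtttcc
CALR, from 225 bases upstream, opposite strand: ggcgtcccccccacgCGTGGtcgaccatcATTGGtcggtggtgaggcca
CANX, from 151 bases upstream of its first listed start: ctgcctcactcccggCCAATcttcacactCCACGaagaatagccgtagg
PDIA6, from 86 bases upstream of its downstream start: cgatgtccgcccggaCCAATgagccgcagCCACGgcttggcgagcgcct
HERPUD1, ERSE-II from 117 bases upstream: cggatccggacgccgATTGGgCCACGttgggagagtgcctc
HYOU1, ERSE-II from 79 bases upstream, opposite strand: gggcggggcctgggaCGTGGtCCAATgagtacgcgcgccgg

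The whole windows of HSPA5 and HYOU1 are given as the clearest examples of ERSE and of ERSE-II with UPRE.
HSPA5, chr9:125241294-125241593, minus strand: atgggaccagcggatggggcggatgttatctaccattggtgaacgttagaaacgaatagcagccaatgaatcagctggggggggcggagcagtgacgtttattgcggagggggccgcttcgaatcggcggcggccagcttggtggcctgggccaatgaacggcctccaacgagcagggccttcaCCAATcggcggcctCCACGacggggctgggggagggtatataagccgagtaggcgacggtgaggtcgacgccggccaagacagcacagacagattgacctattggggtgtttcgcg
HYOU1, chr11:119057156-119057455, minus strand: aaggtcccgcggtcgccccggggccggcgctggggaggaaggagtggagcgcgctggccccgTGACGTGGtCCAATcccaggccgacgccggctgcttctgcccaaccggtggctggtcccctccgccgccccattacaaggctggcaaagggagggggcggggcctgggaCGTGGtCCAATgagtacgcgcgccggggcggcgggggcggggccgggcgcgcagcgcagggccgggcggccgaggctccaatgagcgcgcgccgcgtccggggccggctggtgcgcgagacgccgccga

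Libraries held 15868353 to 27591724 counts, WT replicate 2 being the shallowest, and the other 7 held at least 25062543. A floor of 3 counts corresponded to 0.109 to 0.189 CPM by total counts alone, far under every member. All other CPM values are counts scaled by library size and TMM factor. Each targeted gene was lower in its own line than in WT: KDM6A was at 10.9 ± 0.845 against 57.7 ± 4.93 CPM (SD, n = 2), KMT2B at 69.3 ± 8.86 against 141 ± 6.25 CPM, and KDM5C at 321 ± 13.4 against 456 ± 21.6 CPM. KDM5C also fell in sgKDM6A (-0.25, adjusted p = 0.0359) and was at 393 ± 3.70 CPM in sgKMT2B (adjusted p = 0.0667), so its lower level was not confined to its own line. Counts over whole genes do not show whether protein was lost. Among embryonic kidney markers, 5 of 6 were tested and their summed level was 114 to 129 CPM over all libraries, with LHX1 near 0. That sum held changes in both directions: PAX2 fell in sgKDM6A (-0.89, adjusted p = 0.00482) and sgKMT2B (-0.57, adjusted p = 0.0418), EYA1 fell in sgKDM6A (-0.93, adjusted p = 0.00268), SALL1 rose in both of these lines, and WT1 rose in sgKMT2B. Of 5 epithelial markers, 4 were tested, KRT19 was at or near 0, and their summed level was 174 to 176 CPM in WT, 147 to 148 in sgKDM5C, 71.1 to 78.1 in sgKDM6A and 315 to 336 in sgKMT2B. The higher sum in sgKMT2B was that of KRT8 (on average 256 CPM against 60.6 in WT), while CDH1 (-1.53, adjusted p = 0.00128) and KRT18 (-0.63, adjusted p = 0.000692) fell there. Fibroblast markers (5 of 6 tested, COL1A2 at or near 0) summed to 55.4 to 57.6, 32.4 to 34.6, 23.5 to 25.5 and 81 to 93.3 CPM in that order. In sgKMT2B COL3A1 averaged 43.2 CPM against 1.51 in WT, while COL1A1 (-0.36, adjusted p = 0.045) and PDGFRA (-1.43, adjusted p = 0.0164) fell. Neuronal markers (4 of 5 tested) summed to 41.5 to 45.6, 44.6 to 56.7, 45.3 to 55.9 and 16.6 to 17.3 CPM. In sgKDM5C NEFL fell (-1.50, adjusted p = 0.000253) and INA rose (0.96, adjusted p = 0.00256). NEFM averaged 5.65 CPM in WT and 0 in sgKDM5C and sgKDM6A, and NEFL, NEFM and INA all fell in sgKMT2B. Haematopoietic markers (CD3E and HBB at 0 in every library) reached at most 7.3 CPM and endothelial ones at most 1.89 CPM. Of 5 plasma cell and secretory gland markers, 1 was tested, XBP1, whose values are given with the response genes. The part of the shifts in kidney, epithelial, fibroblast and neuronal markers in the chaperone values was not tested.

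The 10 chaperone genes together took 0.404% and 0.451% of all counts in the WT libraries. They took 0.33% and 0.322% in sgKDM5C, 0.36% and 0.375% in sgKDM6A, with 0.354% and 0.335% in sgKMT2B. Both WT libraries were thus above the 6 knockout libraries. The sum cannot tell fewer transcripts in each cell from fewer cells that make them, since these are bulk samples.

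Per length of annotated exon, CALR was the most abundant member in WT, at 349 ± 4.48 CPM per kilobase (SD, n = 2). It was followed by HSPA5 at 221 ± 56.5, CANX at 157 ± 12.3, HSP90B1 at 90.3 ± 5.15, PDIA4 at 89.5 ± 11.5, PDIA3 at 66.4 ± 4.76, PDIA6 at 59 ± 3.38, HYOU1 at 38.8 ± 0.725, HERPUD1 at 16.1 ± 4.17 and DNAJB9 at 4.66 ± 1.3 CPM per kilobase. HSP90B1 and PDIA4 did not differ beyond their spread. The length joins all annotated exons of a gene, whether or not these cells use them, so ranks between genes depend on it. In CPM without that division, HSPA5 was below CANX in every library. Per kilobase the order was not the same in every line. In sgKDM5C HSPA5 was at 101 ± 7.13 CPM per kilobase with CANX at 123 ± 7.74, while in sgKDM6A HSPA5 was at 148 ± 1.48 and CANX at 128 ± 2.31. In sgKMT2B they were within their spread, at 117 ± 4.74 and 120 ± 5.15. PDIA4 was above HSP90B1 in sgKDM5C (68 ± 1.75 against 60.9 ± 4.55) and in sgKMT2B (85 ± 2.18 against 75.5 ± 2.09), and below it in sgKDM6A (65.9 ± 0.808 against 73.4 ± 4.78). Within a library, the ratio of HSPA5 to CANX in CPM was 0.766 and 0.988 in WT, 0.519 and 0.514 in sgKDM5C, 0.738 and 0.709 in sgKDM6A, with 0.611 and 0.613 in sgKMT2B.

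**Figure D1:**
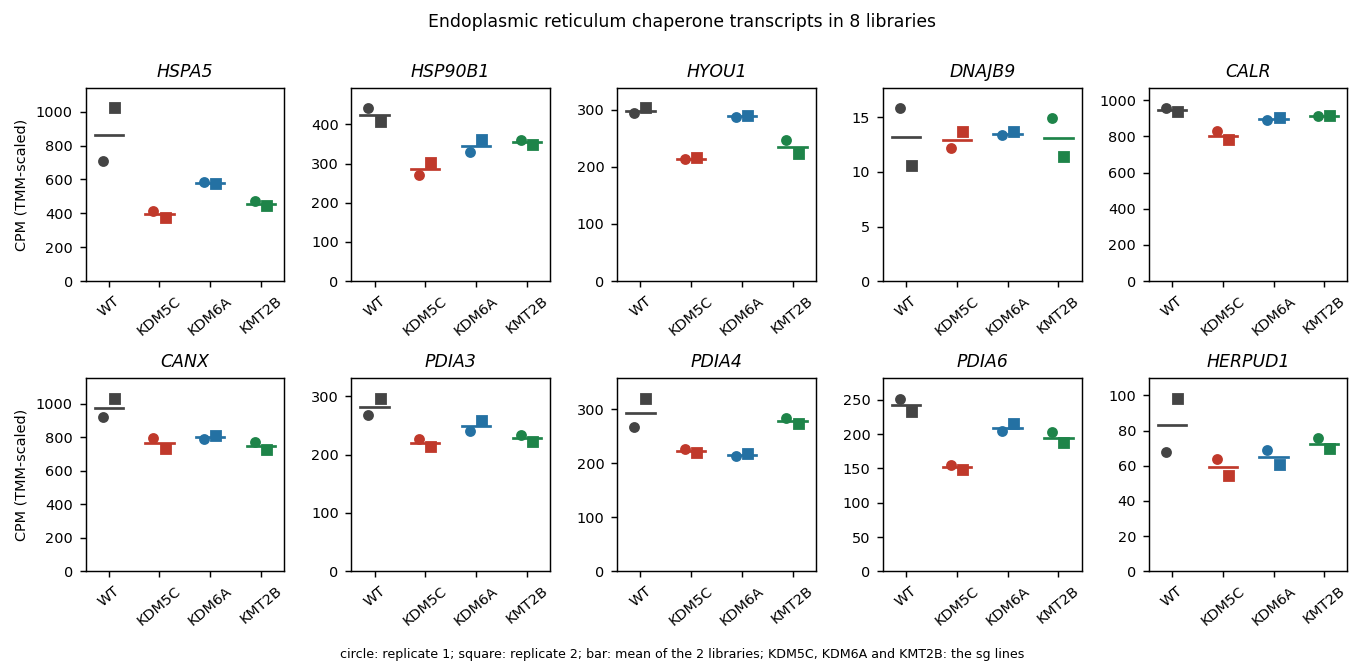
TMM-scaled CPM (vertical axes from 0) of each of the 10 chaperone genes in WT and the 3 knockout lines; points are single libraries and bars are means of 2. HSPA5 lies at 707 and 1019 CPM in WT and between 375 and 583 CPM in the knockout libraries, and DNAJB9 overlaps between groups.

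In the comparison of sgKDM5C with WT, which was known when the genes were chosen, 9 of the 10 members were past the threshold on the lower side and 0 on the higher, with 11.5% of all tested genes lower and 11.1% higher. That count is part of the choice of genes and no evidence about them. Against WT in sgKDM6A, 4 members fell and 0 rose, with 14.6% of all genes lower and 12.6% higher. In sgKMT2B, 6 fell and 0 rose, with 14.5% of all genes lower and 13.7% higher. Median log2 changes of the 10 were -0.44, -0.25 and -0.28 in sgKDM5C, sgKDM6A and sgKMT2B, where the medians over all tested genes were 0.022, 0.0058 and 0.0010. The counts rest in part on single libraries: without sgKDM5C replicate 2, 4 members were lower in sgKDM5C, without sgKDM6A replicate 1, 2 fell in sgKDM6A, and without sgKMT2B replicate 1 or 2, 3 and 1 fell in sgKMT2B. The shares over all genes in those fits are not given here. The 3 comparisons share the WT libraries, so they are not independent of each other. The WT values known when the genes were chosen also enter the sgKDM6A and sgKMT2B counts, medians and p-values of the members. Those are therefore no independent test of the members either. Changes are log2 fold changes of edgeR's quasi-likelihood fit with their SE, and a gene is said to rise or fall at a Benjamini-Hochberg adjusted p under 0.05 over all tested genes.

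HSPA5 (ENSG00000044574, chromosome 9, 125234853 to 125241330) had the largest change of the members in each knockout in the fit of all libraries, an order that did not hold in sgKDM6A without WT replicate 2, where HSP90B1 (-0.35) and PDIA4 (-0.30) changed more than HSPA5 (-0.29). Its level was 707 and 1019 CPM in the WT libraries, 415 and 375 in sgKDM5C, 583 and 575 in sgKDM6A, with 471 and 445 in sgKMT2B. Both WT libraries were above every knockout library, but they also differed from each other by 1.44-fold, more than the libraries of any knockout. HSPA5 fell by 0.58 on the log2 scale in sgKDM6A (SE 0.13, adjusted p = 0.00579) and by 0.91 in sgKMT2B (SE 0.13, adjusted p = 0.00025). In sgKDM5C the change was -1.13 (SE 0.13), or 2.19-fold. That fall was known when the genes were chosen, and every comparison with WT uses the same WT libraries. The rank of HSPA5 and its p-values are therefore no independent test. Without WT replicate 2, the shallowest library, the changes were -0.29 in sgKDM6A (adjusted p = 0.0374), -0.63 in sgKMT2B (adjusted p = 0.000353) and -0.85 in sgKDM5C.

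HSP90B1 (ENSG00000166598, chromosome 12, 103930107 to 103953645) encodes the ER paralog of HSP90. It was at 441 and 407 CPM in WT, 271 and 301 in sgKDM5C, 329 and 360 in sgKDM6A, with 362 and 348 in sgKMT2B, with no overlap between WT and any knockout. The WT libraries were in the opposite order to those of HSPA5. HSP90B1 fell by 0.30 in sgKDM6A (SE 0.091, adjusted p = 0.0266) and by 0.26 in sgKMT2B (SE 0.091, adjusted p = 0.0494), and its change in sgKDM5C was -0.57 (SE 0.091). In sgKDM6A the call did not hold without WT replicate 1 (0.09) or sgKDM6A replicate 1 (0.222). The sgKMT2B call was lost when any library other than WT replicate 2 was left out (adjusted p = 0.0578 to 0.23).

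HYOU1 (ENSG00000149428, chromosome 11, 119044189 to 119057202), a large HSP70-like chaperone that serves as a nucleotide exchange factor for HSPA5, separated the lines. It was at 294 and 302 CPM in WT and 287 and 290 CPM in sgKDM6A, against 213 and 216 in sgKDM5C and 246 and 223 in sgKMT2B. HYOU1 fell by 0.35 in sgKMT2B (SE 0.085, adjusted p = 0.00863), a call lost without sgKMT2B replicate 2 (0.118), and changed by -0.47 (SE 0.085) in sgKDM5C. In sgKDM6A the change was -0.05 (SE 0.085, adjusted p = 0.705). DNAJB9 (ENSG00000128590, chromosome 7, 108569568 to 108574850), a J-domain partner of HSPA5, was at 10.6 to 15.8 CPM in all 8 libraries. The groups overlapped, and its changes of -0.04, 0.02 and -0.02 in sgKDM5C, sgKDM6A and sgKMT2B (SE 0.2 each) did not pass in the 2 lines tested (adjusted p = 0.952 and 0.956).

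The lectin chaperones differed from each other. CANX (ENSG00000127022, chromosome 5, 179678628 to 179730925), the membrane-bound one, was at 923 and 1031 CPM in WT, 798 and 730 in sgKDM5C, 790 and 810 in sgKDM6A, with 771 and 726 in sgKMT2B, with no overlap with WT. It fell by 0.29 in sgKDM6A (SE 0.086, adjusted p = 0.0236) and by 0.38 in sgKMT2B (SE 0.086, adjusted p = 0.00476), with a change of -0.35 (SE 0.086) in sgKDM5C. The sgKDM6A call did not hold without WT replicate 2 (0.107) or either sgKDM6A library (0.142 without replicate 1, 0.0852 without replicate 2), and the sgKMT2B call without sgKMT2B replicate 2 (0.0557). CALR (ENSG00000179218, chromosome 19, 12938578 to 12944489), the soluble one, was at 955 and 937 CPM in WT and at 890 to 912 CPM in the sgKDM6A and sgKMT2B libraries. Its changes there of -0.08 and -0.05 (SE 0.075 each) did not pass (adjusted p = 0.459 and 0.641), although its levels lay below both WT libraries. In sgKDM5C CALR was at 828 and 779 CPM, a change of -0.24 (SE 0.075).

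Of the 3 isomerases, PDIA3 and PDIA6 passed in sgKMT2B and not in sgKDM6A, and PDIA4 passed in sgKDM6A and not in sgKMT2B. In the direct comparison of sgKMT2B with sgKDM6A, PDIA3 (-0.13, adjusted p = 0.34) and PDIA6 (-0.10, adjusted p = 0.448) did not pass. PDIA6 (ENSG00000143870, chromosome 2, 10783391 to 10837977) was at 252 and 232 CPM in WT, 155 and 148 in sgKDM5C, 204 and 215 in sgKDM6A, with 203 and 187 in sgKMT2B. It fell by 0.31 in sgKMT2B (SE 0.089, adjusted p = 0.0189), not in sgKDM6A (-0.21, SE 0.089, adjusted p = 0.098), and changed by -0.68 (SE 0.09) in sgKDM5C. PDIA3 (ENSG00000167004, chromosome 15, 43746392 to 43773279), the partner of the lectin chaperones, was at 267 and 296 CPM in WT, 226 and 213 in sgKDM5C, 240 and 258 in sgKDM6A, with 234 and 222 in sgKMT2B. It fell in sgKMT2B (-0.305, SE 0.09, adjusted p = 0.022), not in sgKDM6A (-0.18, SE 0.09, adjusted p = 0.16), with -0.36 (SE 0.09) in sgKDM5C.

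PDIA4 (ENSG00000155660, chromosome 7, 149003062 to 149028641) was at 267 and 320 CPM in WT, 227 and 219 in sgKDM5C, 214 and 218 in sgKDM6A, with 283 and 273 in sgKMT2B. The sgKMT2B libraries lay within the WT range, and the other 4 knockout libraries lay below it. PDIA4 fell by 0.44 in sgKDM6A (SE 0.096, adjusted p = 0.00447). The change in sgKMT2B was -0.07 (SE 0.096, adjusted p = 0.601). In sgKDM5C it was -0.40 (SE 0.096). The sgKMT2B calls of PDIA3 and PDIA6 were each lost when either sgKMT2B library was left out (adjusted p = 0.0638 to 0.172), that of PDIA3 also without WT replicate 2 (0.0987) and that of PDIA6 without WT replicate 1 (0.0701).

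HERPUD1 (ENSG00000051108, chromosome 16, 56932048 to 56944863), a membrane protein of the degradation machinery, varied more between the WT libraries, at 67.7 and 98.1 CPM, than between groups. It was at 64.1 and 54 CPM in sgKDM5C, 69 and 60.4 in sgKDM6A, with 75.6 and 69.3 in sgKMT2B. Its changes of -0.35 in sgKDM6A (SE 0.155, adjusted p = 0.106) and -0.19 in sgKMT2B (SE 0.154, adjusted p = 0.391) did not pass. Without WT replicate 1 they were -0.60 and -0.43 and passed (adjusted p = 0.0061 and 0.0305). In sgKDM5C the change was -0.48 (SE 0.155), and without WT replicate 2 it was -0.21.

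**Figure D2:**
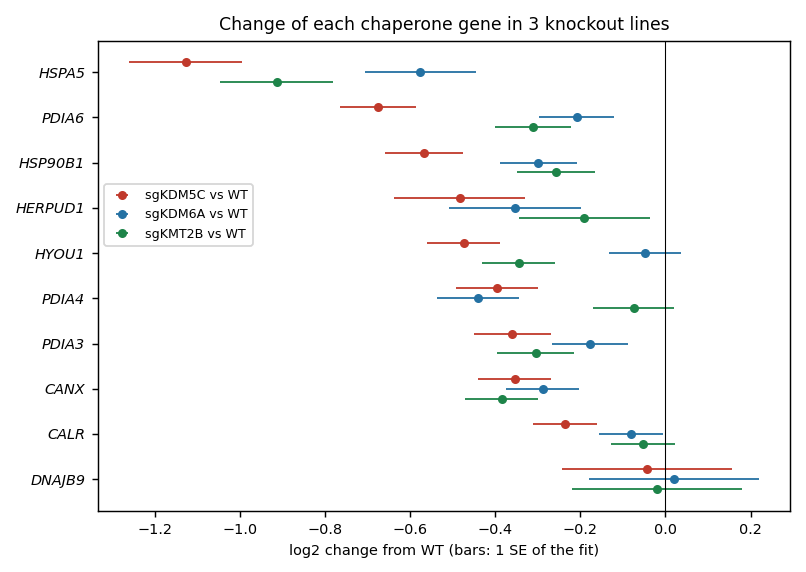
Log2 change from WT (horizontal axis) of each chaperone gene in the 3 knockout lines, as points with bars of 1 SE of the fit. HSPA5 lies farthest left in each line, at -1.13, -0.58 and -0.91, while DNAJB9 lies at 0 within its SE. The fall of HSPA5 in sgKDM5C was known when the genes were chosen, and the 3 lines share the WT libraries.

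Exons of other annotated genes cover 2.41% to 25.2% of the exon bases of 7 members, mostly on the opposite strand, with PDIA6 at 25.2% (ATP6V1C2) and PDIA3 at 18.9%. Since the sources used here do not give the strand setting of the counting, reads in those stretches cannot be assigned with certainty. HSPA5, PDIA4 and HERPUD1 share no exon bases with another gene.

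The direct comparison of sgKMT2B with sgKDM6A uses no WT library, and it called 2 of the 10 members, against 12.4% of all genes lower and 12.5% higher in sgKMT2B. PDIA4 was higher in sgKMT2B by 0.37 (SE 0.096, adjusted p = 0.0124) and HYOU1 lower by 0.30 (SE 0.085, adjusted p = 0.0205). Each call was lost on leaving out 1 of some libraries of these lines: for PDIA4 any of the 4 (adjusted p = 0.0552 to 0.0896), and for HYOU1 any of them except sgKMT2B replicate 1 (0.0948 to 0.226). HSPA5 was lower in sgKMT2B by 0.34 (SE 0.13), which did not pass (adjusted p = 0.0765). The spread of HSPA5 in this fit includes the gap between the WT libraries, and without WT replicate 1 or WT replicate 2 the difference passed (adjusted p = 0.00377 and 0.00331). For the other 7 members the differences ran from -0.13 to 0.16. Described without a test, sgKDM5C was lower than sgKDM6A by 0.55 for HSPA5 (SE 0.13), 0.47 for PDIA6 (SE 0.089) and 0.43 for HYOU1 (SE 0.085), and lower than sgKMT2B by 0.36 for PDIA6 (SE 0.089), 0.32 for PDIA4 (SE 0.096) and 0.31 for HSP90B1 (SE 0.091).

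Levels of the members were compared with each other over the 8 libraries as a description, by Pearson r of log2 CPM. The libraries form 4 groups of 2 and share one scaling. The median over 45 pairs was 0.696, 12 pairs were above 0.8 and 5 were below 0. The members were chosen with falls in sgKDM5C known, and WT and sgKDM5C are among these libraries. Part of the likeness can therefore come from the choice, and no r between pairs of other genes is given as a background. HSPA5 was most like PDIA3 (0.976) and CANX (0.933), and PDIA6 was close to CALR (0.933) and HSP90B1 (0.933). PDIA4 was closest to HERPUD1 (0.84) and had its lowest positive value with HYOU1 (0.244). All 5 negative pairs were with DNAJB9, down to -0.468 with HERPUD1. Outside the members, the 5 genes most like HSPA5 of 10857 ranked were CDC25A (0.982), MRPS5 (0.978), MLX (0.976), PDCD6IP (0.974) and RNPS1 (0.974). CDC25A, a cell cycle phosphatase, averaged 205 CPM in WT, against 109 (sgKDM5C), 162 (sgKDM6A) and 126 (sgKMT2B).

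**Figure D3:**
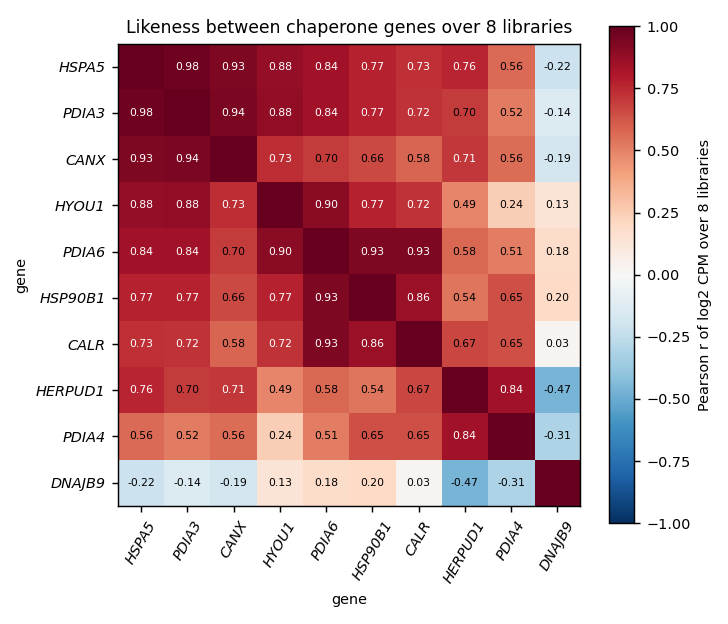
Pearson r of log2 CPM over 8 libraries for each pair of chaperone genes, coloured from -1 to 1 and printed in the cells. HSPA5, PDIA3 and CANX form a block at 0.933 to 0.976, and the row of DNAJB9 holds the 5 negative values. The genes were chosen with falls in sgKDM5C known, and those libraries enter each r.

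The wider pathway was followed in 11 lists with 164 other genes, of which 159 were tested. The lists were chosen with earlier results of these data known, and most genes named from them were taken for a small adjusted p. Their p-values are therefore a description in every line, not independent tests. ATF6B, FKBP2, RNF5, DERL3 and HSPA1A had too few counts, and their values are not used. Of the 159, 32 fell and 24 rose in sgKDM5C, 26 fell and 34 rose in sgKDM6A, and 30 fell and 26 rose in sgKMT2B, with medians of -0.043, -0.024 and -0.012. Over all tested genes 11.5%, 14.6% and 14.5% fell and 11.1%, 12.6% and 13.7% rose, shares to set beside each list below. Like all tested genes, these 159 moved in both directions. For the fits below that leave out a library, the shares over all genes are not given. Without WT replicate 2, 31 fell and 7 rose in sgKDM5C. Genes called, in both directions together, were 56, 60 and 56, and 27 without sgKDM5C replicate 1, 39 without sgKDM6A replicate 1, and 20 or 31 without sgKMT2B replicate 1 or 2.

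Of 5 genes for UPR sensors and the proteases that cleave ATF6, 1 fell in sgKDM5C, 2 in sgKDM6A and 1 in sgKMT2B, while 0 rose. ERN1, the kinase and RNase that splices XBP1 mRNA, fell in each line. It was at 46.7 and 46.6 CPM in WT, 18.6 and 26.6 in sgKDM5C, 19.1 and 23.9 in sgKDM6A, with 22.5 and 28.9 in sgKMT2B. It fell by 1.05, 1.11 and 0.86 on the log2 scale (SE 0.18 each), with adjusted p = 0.00148, 0.000672 and 0.00318. The sgKMT2B call was lost without sgKMT2B replicate 1 (0.0546). Of the other sensors, EIF2AK3 did not pass in any line, nor did ATF6, which passed in sgKMT2B without WT replicate 2 (0.0282). The site-1 protease gene MBTPS1 fell by 0.36 in sgKDM6A (SE 0.094, adjusted p = 0.013), a call lost without WT replicate 2 (0.0736) or either sgKDM6A library (0.0807 and 0.07).

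Of 11 transcription factor genes of the response, 2 fell and 2 rose in sgKDM5C, 4 fell and 0 rose in sgKDM6A, and 2 fell and 3 rose in sgKMT2B. XBP1 was at 157 and 211 CPM in WT, 161 and 127 in sgKDM5C, 142 and 114 in sgKDM6A, with 165 and 156 in sgKMT2B, so that WT overlapped with sgKDM5C and sgKMT2B. It fell in sgKDM6A (-0.52, SE 0.15, adjusted p = 0.0204), a call lost without WT replicate 2 (0.19) or sgKDM6A replicate 2 (0.165). Gene counts do not tell spliced from unspliced XBP1. ATF3, a stress-induced factor, was at 398 and 707 CPM in WT and at 34.1 to 139 CPM in the knockout libraries. It fell by 3.51, 3.66 and 2.29 in sgKDM5C, sgKDM6A and sgKMT2B. DDIT3 (CHOP) and CEBPB rose in sgKMT2B, by 0.75 (SE 0.18, adjusted p = 0.00825) and 1.49 (SE 0.21, adjusted p = 0.000194); the DDIT3 call was lost without sgKMT2B replicate 2 (0.0992).

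Genes listed under the PERK and ATF4 arm went in opposite directions in the same lines. ATF4 itself did not pass in sgKDM5C (-0.13, adjusted p = 0.604), sgKDM6A (-0.05, adjusted p = 0.854) or sgKMT2B (0.34, adjusted p = 0.133). Of 10 listed genes, 4 rose and 2 fell in both sgKDM5C and sgKDM6A, whereas 4 rose and 1 fell in sgKMT2B. The 2 that fell in sgKDM5C were PPP1R15A and PPP1R15B (-0.51, adjusted p = 0.00367). CHAC1, which degrades glutathione, was at 3.26 and 3.71 CPM in WT, 33.7 and 17.2 in sgKDM5C, 31.1 and 11.4 in sgKDM6A, with 65.3 and 51.9 in sgKMT2B. It rose by 2.88 (SE 0.43), 2.61 (SE 0.43) and 4.08 (SE 0.43), with adjusted p = 0.000651, 0.000767 and 2.39e-05. SESN2, a stress-induced inhibitor of mTORC1 signalling, was at 84.9 and 99.6 CPM in WT and at 140 to 304 CPM in the knockout libraries, all above WT. PPP1R15A (GADD34), which directs the dephosphorylation of eIF2α, was at 85.4 and 140 CPM in WT and 30.8 to 52.1 CPM in the knockout libraries. It fell by 1.40, 1.77 and 1.17 in sgKDM5C, sgKDM6A and sgKMT2B (adjusted p = 0.000209, 2.14e-05 and 0.000334).

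HSPA5 was 1.44-fold higher in WT replicate 2 than in WT replicate 1, HERPUD1 1.45-fold, ATF4 1.39-fold, XBP1 1.34-fold, ATF3 1.78-fold and PPP1R15A 1.63-fold, while ERN1 differed by 0.998-fold and HSP90B1 by 0.922-fold. The part of this gap in the WT comparisons was not tested beyond leaving the library out. In each knockout CHAC1, SESN2, ATF4 and HERPUD1 were higher in replicate 1 than in replicate 2, and ERN1 and ATF3 were lower. The source of these differences was not tested.

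**Figure D4:**
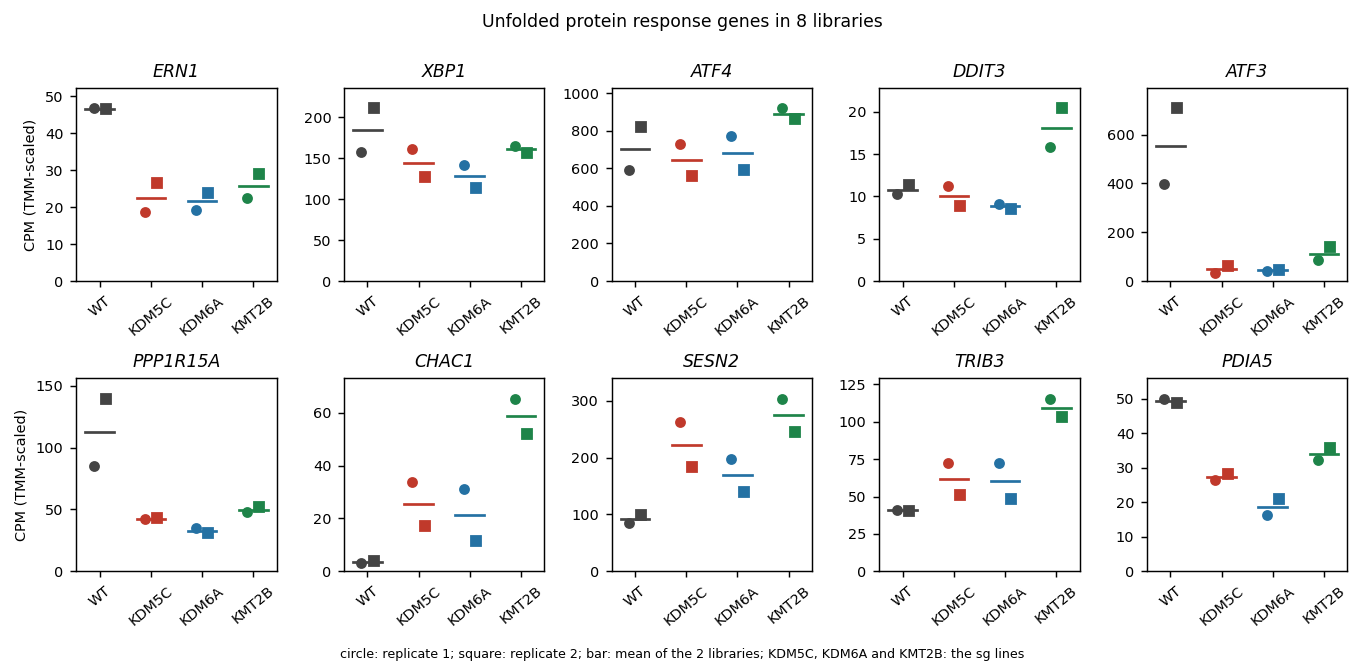
TMM-scaled CPM (vertical axes from 0) of 10 UPR pathway genes in WT and the 3 knockout lines; points are single libraries and bars are means of 2. ERN1, ATF3 and PPP1R15A are lower in the knockout libraries than in WT, and CHAC1 and SESN2 are higher.

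Other folding factors were mixed. Of 19 further chaperones and co-chaperones tested, 5 fell and 4 rose in sgKDM5C, 2 fell and 4 rose in sgKDM6A, and 3 fell and 3 rose in sgKMT2B. The sgKMT2B counts are near, and the 2 that fell in sgKDM6A under, the shares over all genes. SIL1, another nucleotide exchange factor for HSPA5, fell in sgKDM5C (-0.53, SE 0.12, adjusted p = 0.0071), a call lost without sgKDM5C replicate 2 (0.0507). CRELD2 rose in sgKDM6A (0.68, SE 0.135, adjusted p = 0.00243). DNAJC3, a co-chaperone of HSPA5, fell in sgKMT2B (-0.52, SE 0.12, adjusted p = 0.00747), a call lost without sgKMT2B replicate 2 (0.0886). FKBP10, a prolyl isomerase active on collagen, fell in sgKDM5C (-0.64, adjusted p = 0.000588) and sgKDM6A (-0.48, adjusted p = 0.0024).

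Among 17 other isomerases and oxidases, 3 fell and 0 rose in sgKDM5C, 2 fell and 6 rose in sgKDM6A, and 1 fell and 1 rose in sgKMT2B. The 2 that fell in sgKDM6A and both counts in sgKMT2B are under the shares over all genes. PDIA5 fell in each line. It was at 49.9 and 48.8 CPM in WT, 26.4 and 28.1 in sgKDM5C, 16.2 and 20.8 in sgKDM6A, with 32.1 and 35.8 in sgKMT2B. The falls were 0.86 (SE 0.14, adjusted p = 0.000987), 1.42 (SE 0.14, adjusted p = 1.81e-05) and 0.54 (SE 0.14, adjusted p = 0.00993), the last lost without sgKMT2B replicate 1 (0.114). ERP44, which retains client proteins by thiol exchange, rose in sgKDM6A (0.72, SE 0.12, adjusted p = 0.000968).

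In the glycan and lectin cycle, 4 of 15 genes fell in sgKDM5C, 1 in sgKDM6A and 4 in sgKMT2B, while 0 rose. The 1 in sgKDM6A is under the 14.6% of all genes that fell there. RPN1, a subunit of the oligosaccharyltransferase, fell in sgKDM6A (-0.97, SE 0.1, adjusted p = 2.58e-05), in sgKDM5C (-0.40, adjusted p = 0.0118) and in sgKMT2B (-0.33, adjusted p = 0.0251). The sgKDM5C and sgKMT2B calls of RPN1 were lost without WT replicate 2 (0.0616 and 0.176), without sgKDM5C replicate 2 (0.0789) or without sgKMT2B replicate 1 or 2 (0.157 and 0.0872). LMAN1, a cargo receptor for glycoproteins, fell in sgKDM5C (-1.16, SE 0.15, adjusted p = 0.000284). Of 22 degradation genes, 3 fell and 3 rose in sgKDM5C, 1 fell and 4 rose in sgKDM6A, and 2 fell and 6 rose in sgKMT2B. The sgKDM5C counts are near, and the 1 that fell in sgKDM6A under, the shares over all genes. EDEM3, which trims mannose from misfolded glycoproteins, rose by 0.69 (SE 0.15, adjusted p = 0.00627), 0.76 (SE 0.15, adjusted p = 0.00267) and 0.97 (SE 0.15, adjusted p = 0.000445), the first lost without WT replicate 2 (0.0501).

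Genes for entry to and exit from the ER were counted as well. Of 17 translocon and signal peptidase genes, 2 fell and 4 rose in sgKDM5C, 1 fell and 6 rose in sgKDM6A, and 2 fell and 3 rose in sgKMT2B, the last near the 14.5% lower and 13.7% higher over all genes. Of 14 KDEL receptor and COPII coat genes, 5 fell and 2 rose in sgKDM5C, 3 fell and 2 rose in sgKDM6A, and 6 fell and 1 rose in sgKMT2B. SEC24D, a COPII cargo adaptor, fell by 0.65 (adjusted p = 0.00579, lost without sgKDM5C replicate 1 at 0.0595), 0.91 (adjusted p = 0.000542) and 0.90 (adjusted p = 0.000511). Of 14 ER calcium genes, 2 fell and 1 rose, 4 fell and 0 rose, and 5 fell and 2 rose in that order of lines, and the calcium channel ITPR3 fell by 0.78, 0.97 and 0.51 (adjusted p = 0.00042, 4.89e-05 and 0.00391).

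Cytosolic heat shock chaperones, which serve proteins outside the ER, gave 3 of 15 that fell and 4 that rose in sgKDM5C, 4 and 8 in sgKDM6A, with 3 and 3 in sgKMT2B. DNAJA1 rose by 1.08, 1.01 and 0.92 (adjusted p = 0.000855, 0.000846 and 0.0014), and HSPB1 rose in sgKDM5C (1.07, SE 0.11, adjusted p = 4.89e-05) and fell in sgKDM6A (-2.32, SE 0.12, adjusted p = 3.3e-08).

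**Figure D5:**
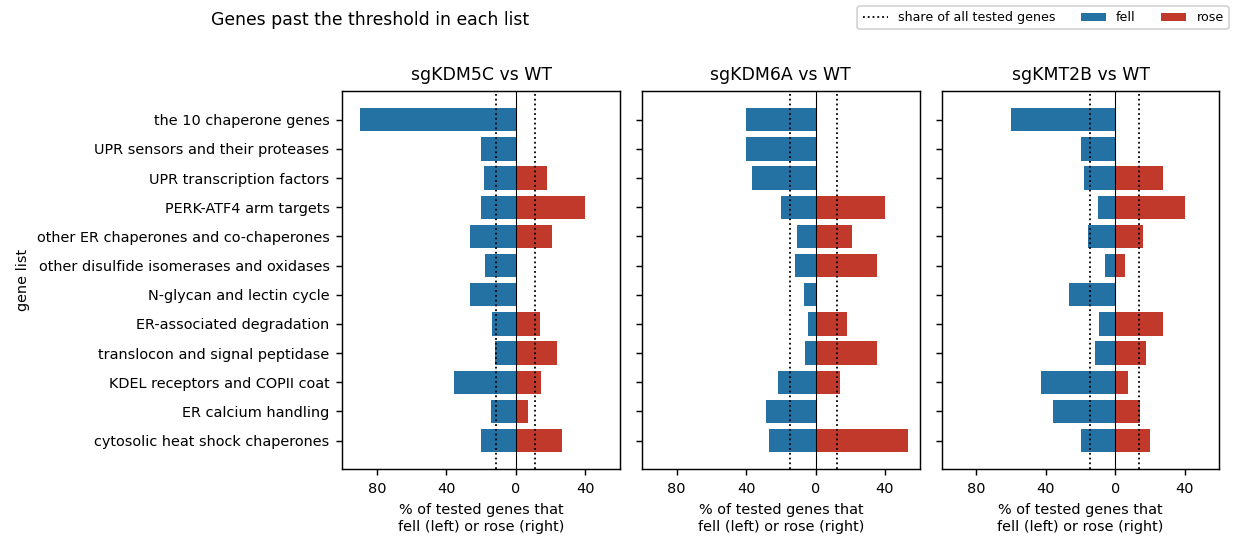
Share of the tested genes of each list (rows) that fell (left of 0) or rose (right of 0) against WT in each knockout line, with dotted lines at the share of all tested genes. In the row of the 10 chaperone genes 4 fell in sgKDM6A and 6 in sgKMT2B; its 9 in sgKDM5C belong to the comparison known when the genes were chosen and are shown for completeness.

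The ERSE and ERSE-II letters were also followed outside the members, with the list taken from sequence alone after the members' values were known. Of 37 other genes with either motif in a promoter window, 25 were tested. Since both strands were searched, windows of neighbouring genes can hold the same match, so these genes are not all independent. In sgKDM5C 5 fell and 1 rose, in sgKDM6A 7 fell and 1 rose, and in sgKMT2B 4 fell and 2 rose, with medians of -0.14, -0.10 and -0.09. Over all tested genes 11.5%, 14.6% and 14.5% fell and 11.1%, 12.6% and 13.7% rose, so the 4 of 25 that fell in sgKMT2B are near the share over all genes. XBP1 is 1 of the 25. CRELD2 rose in sgKDM6A (0.68, adjusted p = 0.00243). SERP1, which stabilises membrane proteins at the translocon, fell in sgKDM5C (-0.38, adjusted p = 0.0135) and sgKDM6A (-0.71, adjusted p = 0.000204). SDF2L1, a partner of HSPA5 and its J-domain proteins, did not pass in any line (adjusted p = 0.0768, 0.558 and 0.658).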

How the data were processed

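Poly(A) RNA of HEK293T cells was sequenced as read pairs. The authors deposited raw read counts per Ensembl gene for 8 libraries, made with STAR and HTSeq 0.11.2 on GRCh38, per the submitters' processing notes. The sources used here do not give the annotation release or the strand setting. Symbols were matched for 60596 identifiers and positions and exon lengths came from GENCODE v29 (58542 identifiers).

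Counts were fitted with edgeR 4.0.16 (quasi-likelihood test, R 4.3.3) after TMM scaling and filterByExpr, with all 8 libraries in a model of 4 group means (4 residual degrees of freedom), and p-values were adjusted by Benjamini-Hochberg over 17527 genes. Replicates differed by more than sampling noise (chi-square per degree of freedom 7.57 to 15.3), and each library counted as 1 replicate. Alternatives were RLE and upper-quartile factors, DESeq2 1.42.0, other filters, fits of 2 groups, a replicate block, and each library left out.

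The members and the pathway lists were chosen with earlier results of these data known. Named genes were the members, and from each list up to 4 genes with the smallest adjusted p in each knockout. The text gives a part of these. XBP1 and other genes given in further lines, and ATF4, SERP1 and SDF2L1, were named after their values were seen. The 5 genes most like HSPA5 had to average at least 5 CPM. Promoter sequences are RefSeq's. Floors cover counting error only. Values after ± are SDs between the libraries of a group, and SEs are those of the quasi-likelihood fit, so neither is limited to counting error. The labels give no batch or date.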

Additional observations from a re-analysis of the deposited data

How the results depend on the processing

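The shares of all genes called in the fits of this section are not given, so the counts are a description. Nothing is read from those of sgKDM5C. Fits with RLE or upper-quartile factors, DESeq2, no filter or a mean CPM of at least 1 were compared. Members called in them, all lower, were 8 or 9 in sgKDM5C, 4 or 5 in sgKDM6A and 5 or 6 in sgKMT2B. A fit of only the 2 groups compared left 2 in sgKDM6A. Leaving out 1 library gave 4 to 8, 2 to 4 and 1 to 5 members in these lines and 0 to 3 between sgKMT2B and sgKDM6A; the lowest came without sgKDM5C replicate 2, sgKDM6A replicate 1, sgKMT2B replicate 2 and, in the last, without sgKMT2B replicate 2 or either sgKDM6A library. The fit then rests on 1 library of a group, assumed to vary like the others, and the cause of each loss was not tested. Pathway genes called ran from 27 to 65, 39 to 69 and 20 to 57; with no filter, 23 fell and 30 rose in sgKMT2B.

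Deviations of same-numbered libraries correlated at -0.0179 to 0.007 between WT and each knockout and at 0.0826 to 0.182 between knockouts. Since not every pair of groups was above 0.1, the numbers were not taken to pair the samples. These r values are over all genes and do not show whether single genes follow the number, as CHAC1 and SESN2 did within the knockouts. With a replicate block, 9, 4 and 6 members and 67, 66 and 62 pathway genes were called.

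Of 600 values of single members, 536 kept direction and side of the threshold, 48 fell short of it, 7 passed newly and 9 reversed, all 9 from changes too small to pass. Over the fits that leave out 1 library, DNAJB9 ran from -0.31 to 0.29 in sgKDM5C, -0.23 to 0.35 in sgKDM6A, -0.27 to 0.315 in sgKMT2B and -0.25 to 0.15 for sgKMT2B over sgKDM6A. PDIA4 ran from -0.20 to 0.061 and HERPUD1 from -0.43 to 0.097 in sgKMT2B, and HSP90B1 from -0.022 to 0.11 for sgKMT2B over sgKDM6A. Among pathway genes, EIF2AK3 ran from -0.029 to 0.33 in sgKDM5C and -0.11 to 0.12 in sgKMT2B (0.0056 with no filter), and ATF6 from -0.205 to 0.028 in sgKDM5C. With 2 libraries a group, changes near the SE of 0.075 to 0.2 could not be told from 0.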
